A study of Mus musculus with 52 samples.

Results

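Bone marrow stromal cell cultures dosed with triphenyl phosphate (TPhP) were set against cultures dosed with rosiglitazone (Rosi), both harvested 1 day after osteogenic induction and dosing began. The arrays were chosen by their titles, 4 of TPhP and 4 of Rosi, which makes 8 of the 52 arrays of the series. All groups used here came from female C57BL/6J mice aged 8 weeks, whose marrow cells were pooled from 2 to 4 animals, grown for 7 days and then moved to osteoinductive medium with ascorbate, β-glycerol phosphate, insulin and 10 nM dexamethasone. The groups were TPhP at day 1, Rosi (100 nM) at day 1, TPhP and Rosi at day 4, and vehicle (DMSO, 0.1%) at day 1, each with 1 array of the numbers 12, 15, 19 and 20, read here as 4 pools of animals. The dose of TPhP is not given in the sources used here, so the cultures are compared as dosed and not at a matched dose. The assay was the Affymetrix Mouse Gene 2.0 ST array, and values are log2 intensities as deposited. A sample of RNA from a whole culture cannot tell fewer cells of a type from less RNA per cell.

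Rosi is a thiazolidinedione and a full agonist of PPARγ, the nuclear receptor that, as a heterodimer with RXR, switches on the genes of fat cells. TPhP is an aryl phosphate ester used as a flame retardant and plasticizer. Stromal cells of the marrow can become bone-forming osteoblasts or fat-storing adipocytes. PPARγ agonists push them toward the adipocyte, with induction of fatty acid carriers, lipid droplet coats and triglyceride enzymes. The same agonists are known to hold back osteoblast genes in marrow stromal cells.

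Array medians ran from 3.97 to 4.15 over the 52 arrays, and precision is limited by having 4 arrays a group. In 1 TPhP array, that of pool 12, values stood apart. It correlated with the other TPhP arrays at 0.974 to 0.983 over 14911 genes, against 0.987 to 0.993 among those others and 0.982 to 0.991 among the Rosi arrays. Where day 1 calls between TPhP and Rosi ended without it, that is given beside the gene or the count of its list. Summed neutrophil markers (14 with a probe set, each with a mean above the median of the table in every group) ran from 10.80 to 11.80 in TPhP arrays, 11.93 to 12.26 in Rosi arrays and 11.71 to 12.22 in vehicle arrays. The lowest of these was the TPhP array of pool 12, and without it the TPhP arrays began at 11.67. Summed B cell markers ran from 11.10 to 11.67 with TPhP, 11.96 to 12.08 with Rosi and 11.71 to 12.06 with vehicle. Macrophage markers overlapped, at 14.16 to 14.80 with TPhP, 14.49 to 14.62 with Rosi and 14.64 to 14.80 with vehicle. Markers of marrow immune cells were thus measured in all 3 groups beside those of stromal cells, and their part in the results below was not tested. No neutrophil, B cell or macrophage marker passed the test between TPhP and Rosi, but all 14 neutrophil markers (median -0.60), 6 of 7 B cell markers (median -0.52) and 13 of 19 macrophage markers (median -0.12) had a negative difference. Without the TPhP array of pool 12 these medians were -0.36, -0.46 and 0.15, so the macrophage median changed sign. That array also gave the lowest macrophage sum, and the other TPhP arrays began at 14.62. Summed osteoblast markers overlapped too, at 13.91 to 14.26 with TPhP, 13.69 to 14.12 with Rosi and 14.06 to 14.31 with vehicle.

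The main difference was that fat cell genes stood lower in TPhP cultures than in Rosi cultures, while a smaller set of genes, 4 of 15 smooth muscle genes among them, stood higher. Differences are TPhP minus Rosi on the log2 scale ± SE (n = 4 arrays each), and rose and fell are used of genes whose adjusted p by limma was under 0.05. Of 14911 genes tested, 89 rose and 257 fell in TPhP relative to Rosi (0.597% and 1.72%), and with the pool as a block 168 rose and 346 fell. All 346 calls make up 2.32% of genes. Leaving out pool 12 gave 183 calls, pool 15 251, pool 19 134 and pool 20 97, and the count was 166 when only the TPhP array of pool 12 was left out. Of those 166 calls, 162 were among the 346. In 1532 genes (10.3%) all 4 arrays of a group lay above all 4 of the other group. The median difference over all genes was -0.0034, with 7596 negative and 7315 positive. Counts of negative or positive members in the lists below are to be read beside these.

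**Figure D1:**
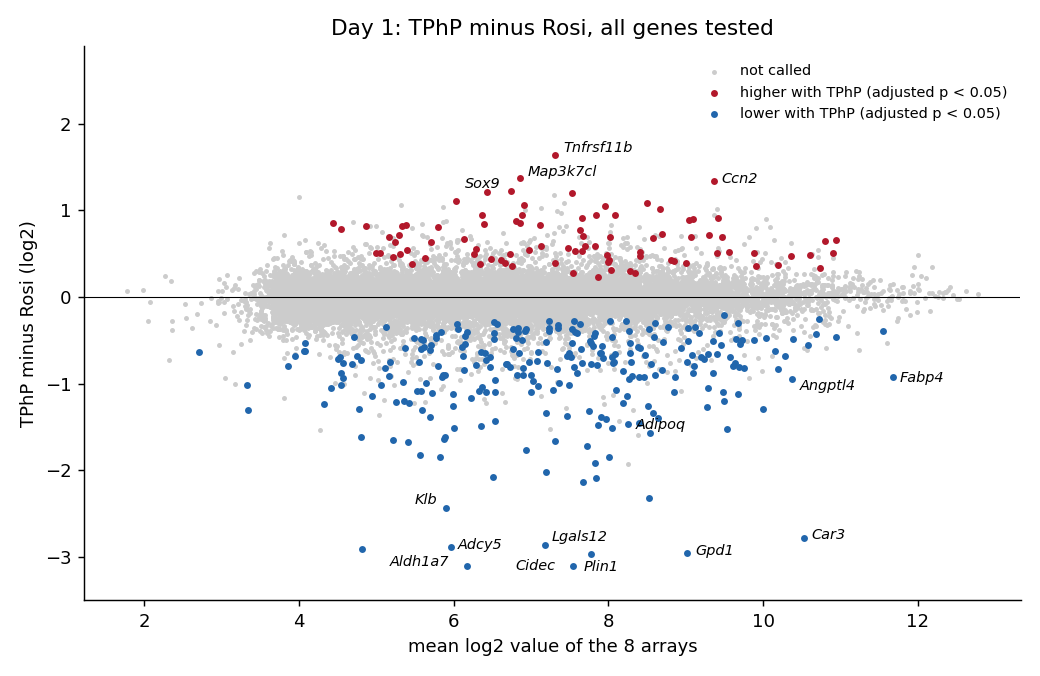
Difference between TPhP and Rosi at day 1 (log2, y axis) against the mean log2 value of the 8 arrays (x axis), 1 point a gene. Red points rose with TPhP (89 genes) and blue points fell (257 genes), and the falls reached about 3 log2 units while the largest rise, Tnfrsf11b, was 1.64.

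Genes that control the breakdown of stored fat were the list with the most falls. Of 12 lipolysis genes tested, 9 fell and 0 rose, with a median difference of -1.28. In the order of pools 12, 15, 19 and 20, kept from here on, Adcy5, an adenylyl cyclase that makes cyclic AMP, had values of 4.19, 4.90, 4.40 and 4.62 in TPhP cultures, against 6.98, 7.47, 7.42 and 7.79 in Rosi cultures and 4.10, 3.99, 4.48 and 4.25 in vehicle cultures. Every Rosi array lay above every TPhP array, and TPhP overlapped vehicle. The difference of -2.89 ± 0.24 (adjusted p = 2.2e-11) is 7.40-fold lower with TPhP. Hcar1, the lactate receptor that restrains lipolysis, had 6.35, 6.95, 6.94 and 6.95 with TPhP, against 8.97, 8.78, 8.82 and 8.96 with Rosi and 5.31, 5.14, 5.14 and 5.35 with vehicle. G0s2, which inhibits the triglyceride lipase ATGL, had 6.93, 6.73, 6.69 and 7.13 with TPhP, against 8.48, 8.51, 8.91 and 9.24 with Rosi and 5.38, 5.19, 5.68 and 5.48 with vehicle. For both genes the TPhP arrays lay between vehicle and Rosi without overlap with either. Hcar1 differed by -2.09 ± 0.29 (adjusted p = 1e-05) and G0s2 by -1.92 ± 0.23 (adjusted p = 6.1e-07). The lipases and their activator fell as well, Pnpla2 (ATGL itself) by 1.29 ± 0.19, Abhd5 (its co-activator) by 1.27 ± 0.14 and Lipe (hormone-sensitive lipase) by 1.49 ± 0.26. Pde3b, the phosphodiesterase through which insulin lowers cyclic AMP, differed by -1.66 ± 0.31 (adjusted p = 0.00097). The genes that fell thus included both activators and inhibitors of lipolysis. Hcar2 and Prkar2b fell by less (-0.78 and -0.79), and Mgll (-0.82, adjusted p = 0.158), Ces1d (0.08) and Ces1f (0.07) did not pass. The count of 9 was 7 without pool 15, 19 or 20 or without the TPhP array of pool 12, and 9 without pool 12.

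Coats of the lipid droplet split into a few large falls and many members that did not pass. Of 14 lipid droplet genes, 4 fell and 0 rose (median -0.26). Plin1, the perilipin of mature fat cells, had 5.41, 6.72, 6.51 and 6.55 in TPhP cultures, against 9.08, 9.37, 9.17 and 9.43 in Rosi cultures and 4.26, 4.59, 4.92 and 4.38 in vehicle cultures. The TPhP array of pool 12 was the lowest of its group by more than 1 log2 unit, and the groups did not overlap. Its difference was -2.97 ± 0.42 (adjusted p = 1.3e-05). Cidec, which fuses droplets into larger ones, had 4.77, 5.80, 6.48 and 6.93 with TPhP, against 9.41, 9.13, 8.82 and 9.03 with Rosi and 3.12, 4.04, 5.16 and 5.41 with vehicle. Within TPhP and vehicle the same pools were low and high. The difference of -3.10 ± 0.80 (adjusted p = 0.023) was not called without pool 12 (adjusted p = 0.0907), pool 15 (0.18) or pool 19 (0.128), or without the TPhP array of pool 12 (0.15). Fitm2, which helps droplets bud from the endoplasmic reticulum, fell by 1.45 ± 0.28. Plin2 (-0.11) and Plin3 (0.12), perilipins of many cell types, did not pass.

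Enzymes that build triglyceride from glycerol and fatty acids were lower with TPhP. Of 14 such genes 6 fell and 0 rose, all 14 had a negative difference, and the median was -0.69. Gpd1, glycerol-3-phosphate dehydrogenase, had 6.51, 7.82, 7.61 and 8.24 in TPhP cultures, against 10.55, 10.50, 10.39 and 10.57 in Rosi cultures and 5.57, 5.25, 6.71 and 6.16 in vehicle cultures. The Rosi arrays spanned a narrow range and the TPhP arrays a wide one, and the difference was -2.96 ± 0.51 (adjusted p = 0.00035). Gpat3, which attaches the first fatty acid to glycerol-3-phosphate, had 5.46, 5.58, 5.46 and 5.38 with TPhP, against 7.52, 7.64, 7.46 and 7.54 with Rosi and 4.81, 4.95, 4.82 and 5.01 with vehicle. Aqp7, the glycerol channel of fat cells, had 8.62, 9.15, 8.73 and 8.61 with TPhP, against 10.19, 10.50, 10.20 and 10.31 with Rosi and 6.89, 6.75, 6.66 and 6.94 with vehicle. In both genes TPhP stood between vehicle and Rosi without overlap. Gpat3 differed by -2.07 ± 0.30 (adjusted p = 1.3e-05) and Aqp7 by -1.52 ± 0.24 (adjusted p = 8.2e-05). The later steps also fell, in Dgat1 (-1.37 ± 0.26) and Dgat2 (-1.72 ± 0.38), the acyltransferases that complete triglyceride, and in Agpat2 (-0.93 ± 0.25), which adds the second fatty acid. Dgat2 was not called without pool 19 (adjusted p = 0.0606) or pool 20 (0.0539). Agpat2 was not called without pool 12 (0.131), pool 15 (0.198) or pool 19 (0.117), or without the TPhP array of pool 12 (0.167).

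Fatty acid carriers that fell did so by less than 1 log2 unit. Of 13 genes of fatty acid uptake and transport, 3 fell and 0 rose (median -0.26). Fabp4, the fatty acid binding protein of adipocytes, had 11.13, 11.17, 11.24 and 11.32 in TPhP cultures, against 12.18, 12.01, 12.14 and 12.25 in Rosi cultures and 9.21, 9.38, 9.81 and 9.68 in vehicle cultures. Angptl4, a secreted inhibitor of lipoprotein lipase and an early PPAR target, had 9.66, 10.08, 9.85 and 9.99 with TPhP, against 10.90, 10.64, 10.91 and 10.94 with Rosi and 7.67, 7.96, 7.92 and 7.92 with vehicle. The 3 groups did not overlap in either gene, and TPhP lay closer to Rosi than to vehicle. The differences between TPhP and Rosi were -0.93 ± 0.20 for Fabp4 (adjusted p = 0.0041) and -0.95 ± 0.18 for Angptl4 (adjusted p = 0.00092), or 1.90-fold and 1.93-fold lower with TPhP. Fabp4 was not called without pool 15 (adjusted p = 0.0585) or pool 19 (0.0857). Lpl, lipoprotein lipase, fell by 0.39 ± 0.10 (adjusted p = 0.018), a call that ended without pool 12 (0.128), pool 19 (0.0899) or pool 20 (0.266) and with the mean of its probe sets (0.0774). Cd36, a fatty acid transporter, differed by -0.32 ± 0.16 and did not pass (adjusted p = 0.42).

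Secreted and surface proteins of fat cells followed the same direction. Of 13 adipokine and surface genes 5 fell and 0 rose (median -0.93). Adipoq, adiponectin, had 7.29, 7.99, 7.28 and 7.54 in TPhP cultures, against 9.30, 9.08, 8.74 and 8.86 in Rosi cultures and 6.84, 6.43, 5.38 and 5.06 in vehicle cultures. Adipor2, an adiponectin receptor, had 8.43, 9.003, 8.75 and 8.88 with TPhP, against 9.84, 9.78, 9.75 and 9.86 with Rosi and 8.30, 8.27, 8.12 and 8.12 with vehicle. The Rosi arrays lay above all TPhP arrays in both genes. Adipoq differed by -1.47 ± 0.33 (adjusted p = 0.0062, and 0.0908 without pool 20) and Adipor2 by -1.04 ± 0.12 (adjusted p = 1.8e-07). Lgals12, a galectin of the lipid droplet, fell by 2.86 ± 0.37, and Trarg1, which regulates trafficking of the glucose transporter GLUT4, by 1.10 ± 0.20. Car3, a carbonic anhydrase abundant in fat, had 7.42, 9.60, 9.61 and 9.92 with TPhP, against 11.78 to 12.02 in the 4 arrays with Rosi and 6.66, 7.18, 7.60 and 7.26 with vehicle. Its TPhP array of pool 12 lay within the vehicle range and the other TPhP arrays above it. Car3 differed by -2.78 ± 0.63 (adjusted p = 0.0073), and was not called without that array (0.0942), without pool 15 (0.0803) or without pool 19 (0.0731). Retn, Adig and Lep, the genes of resistin, adipogenin and leptin, had differences of -1.21, -0.93 and -0.27 that did not pass.

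**Figure D2:**
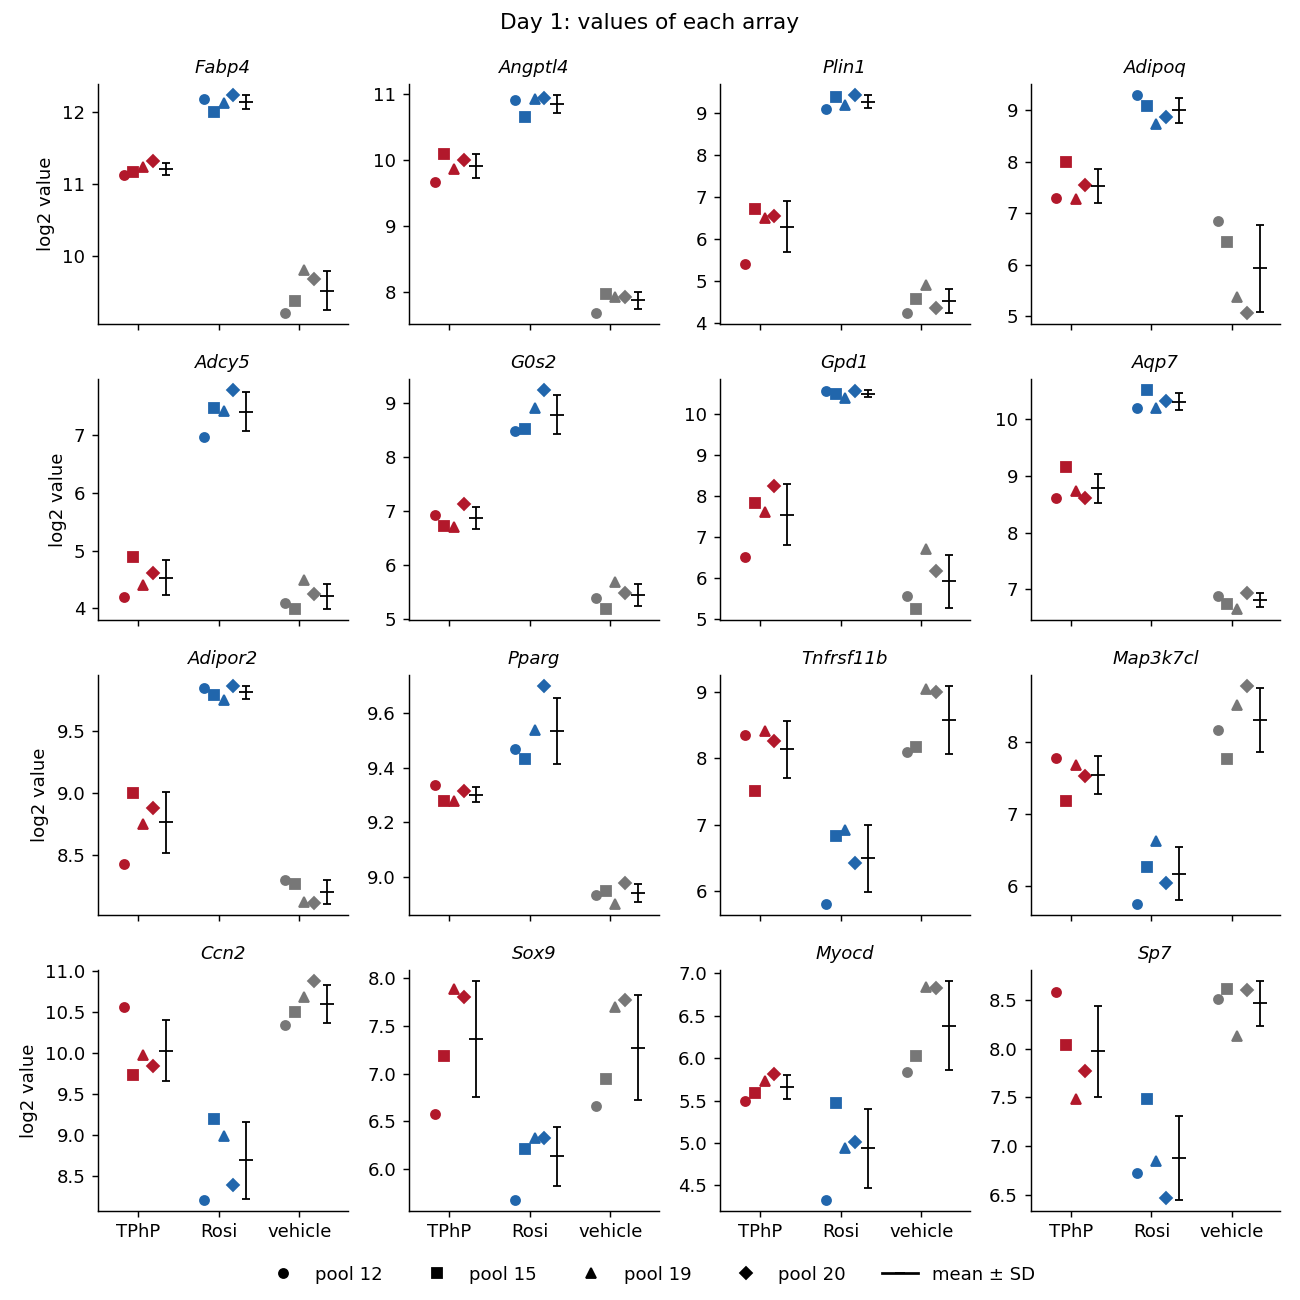
Log2 values (y axes) of 16 genes in each day 1 array of TPhP, Rosi and vehicle cultures, with 1 marker shape a pool and the mean ± SD (n = 4) beside each group. Fat cell genes such as Fabp4 and Aqp7 lie between vehicle and Rosi in TPhP cultures, Adcy5 in TPhP cultures overlaps vehicle, and Tnfrsf11b and Ccn2 are lowest in Rosi cultures.

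The regulators of fat cell formation gave few calls. Of 19 adipogenic transcription factors 2 fell and 0 rose (median -0.19). Cebpa, the partner of PPARγ in the adipocyte, had 9.10, 9.15, 9.19 and 9.30 in TPhP cultures, against 9.54, 9.72, 9.75 and 9.94 in Rosi cultures and 8.84, 8.58, 8.70 and 8.71 in vehicle cultures. It fell by 0.55 ± 0.15 (adjusted p = 0.031), but not without pool 15 (0.139), pool 19 (0.137) or pool 20 (0.28), without the TPhP array of pool 12 (0.128) or with cyclic loess (0.0505). Stat5a, a signal transducer with a role in adipogenesis, fell by 0.39 ± 0.10 (adjusted p = 0.018, and 0.239 without pool 20, 0.131 without pool 12, 0.108 without its TPhP array alone and 0.0609 without pool 15). Pparg itself had 9.34, 9.28, 9.28 and 9.32 with TPhP, against 9.47, 9.43, 9.54 and 9.70 with Rosi and 8.93, 8.95, 8.90 and 8.98 with vehicle. The TPhP and Rosi arrays did not overlap, yet the difference of -0.23 ± 0.14 did not pass (adjusted p = 0.54). Rxra, the gene of its RXR partner, differed by -0.07 ± 0.09 (adjusted p = 0.85) and Nr1h3, the gene of LXRα, by -0.37 ± 0.15 (adjusted p = 0.24). Among 13 thermogenic genes 2 fell and 0 rose, while 7 had a positive difference (median 0.07). Ppargc1b, a coactivator of mitochondrial genes, fell by 0.94 ± 0.22 (adjusted p = 0.0093, and 0.0556 to 0.109 without pool 12, 19 or 20). Otop1 fell by 0.62 ± 0.18 (adjusted p = 0.049, with 0.0549 to 0.541 without any one pool and 0.129 without the TPhP array of pool 12). For both, at least 2 of 4 TPhP arrays lay under the median of the table, 4.05, where sizes are uncertain. Ucp1, the uncoupling protein of brown fat, had 3.39, 3.63, 3.52 and 3.43 with TPhP, against 3.19, 3.39, 3.33 and 3.55 with Rosi. All of these lie under that median, and no difference was detectable (adjusted p = 0.9).

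Fatty acid oxidation genes stood slightly lower with TPhP throughout. All 24 genes of mitochondrial oxidation tested had a negative difference, with a median of -0.37, and 5 fell. Hadh, which carries out the third step of β-oxidation, had 9.17, 9.25, 9.28 and 9.30 in TPhP cultures, against 10.08, 9.91, 9.93 and 10.13 in Rosi cultures and 9.06, 9.27, 9.04 and 9.16 in vehicle cultures. TPhP overlapped vehicle and lay below every Rosi array, at -0.76 ± 0.18 (adjusted p = 0.0098, and 0.0513 without pool 19 or 0.145 without pool 20). Acadm, the medium-chain acyl-CoA dehydrogenase, fell by 0.68 ± 0.17, Acaa2, the thiolase, by 0.66 ± 0.17, Slc25a20, the carnitine carrier, by 0.64 ± 0.18, and Ech1, an enoyl-CoA isomerase, by 0.48 ± 0.13. Pdk4, a PPAR target in many tissues that spares glucose, differed by -0.08 ± 0.18 (adjusted p = 0.94). The count of 5 was 1 without pool 12 or its TPhP array, 1 without pool 15, and 0 without pool 19 or pool 20. All 26 peroxisomal genes also had a negative difference (median -0.32), and 4 fell. Pex16, which starts the formation of peroxisomal membrane, had 5.79, 6.07, 5.65 and 5.95 with TPhP, against 6.99, 6.97, 6.86 and 7.02 with Rosi and 5.64, 5.57, 5.51 and 5.60 with vehicle. It differed by -1.10 ± 0.20 (adjusted p = 0.00071). The other calls were Scp2, a thiolase and lipid transfer protein (-0.81 ± 0.18), Abcd2, a transporter of very long-chain acyl-CoA (-0.93 ± 0.21), and Pex13, of the protein import machinery (-0.41 ± 0.12). Without pool 12 there were 2 calls in place of 4, and 1 when pool 19, pool 20 or the TPhP array of pool 12 was left out. All 19 genes of branched-chain amino acid breakdown had a negative difference (median -0.34), with 2 calls, Bckdhb, a subunit of the branched-chain keto acid dehydrogenase (-0.82 ± 0.21), and Acad8, isobutyryl-CoA dehydrogenase (-0.37 ± 0.11). No gene of that list was called without pool 15, 19 or 20 or without the TPhP array of pool 12.

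Insulin signalling genes included 5 falls and 0 rises among 17 tested (median -0.31), Pde3b and Trarg1 among them. Irs2, an adaptor below the insulin receptor, had 7.15, 6.75, 6.76 and 6.64 in TPhP cultures, against 7.51, 7.38, 7.71 and 7.74 in Rosi cultures and 6.43, 6.27, 6.88 and 6.70 in vehicle cultures. Irs2 differed by -0.76 ± 0.15 (adjusted p = 0.0016, and 0.135 without pool 20). Pik3r1, the regulatory subunit of PI 3-kinase, fell by 0.62 ± 0.13, and Insr, the receptor, by 0.70 ± 0.18. The count of 5 was 3 without pool 12, without pool 19 or without the TPhP array of pool 12, and 2 without pool 20. Slc2a4, the glucose transporter GLUT4, differed by -1.02 and did not pass (adjusted p = 0.186).

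Among the 15 largest falls were several genes of other functions. Aldh1a7, an aldehyde dehydrogenase with near-identical relatives that its probes may also detect, had 4.10, 4.86, 4.73 and 4.81 in TPhP cultures, against 7.70, 7.45, 7.83 and 7.95 in Rosi cultures and 3.41, 4.10, 4.08 and 3.73 in vehicle cultures. Klb, the β-Klotho co-receptor of FGF21, had 4.57, 5.70, 4.63 and 3.82 with TPhP, against 7.41, 7.35, 6.74 and 6.97 with Rosi and 3.69, 4.16, 3.69 and 3.85 with vehicle. Mc5r, a melanocortin receptor, had 6.10, 8.45, 7.38 and 7.56 with TPhP, against 9.49, 9.94, 9.44 and 9.89 with Rosi and 6.86, 6.70, 6.30 and 6.22 with vehicle. For Mc5r the TPhP array of pool 12 lay below all vehicle arrays and the other TPhP arrays above them. The differences were -3.11 ± 0.50 for Aldh1a7, -2.44 ± 0.38 for Klb and -2.32 ± 0.33 for Mc5r (adjusted p at most 8.4e-05). Sptlc3, a subunit of the enzyme that starts sphingolipid synthesis, had 3.01, 3.71, 3.03 and 3.70 with TPhP, against 5.87, 6.65, 6.25 and 6.31 with Rosi and 2.80, 3.14, 2.76 and 3.75 with vehicle. TPhP and vehicle arrays both lay under the median of the table, so the size of -2.91 ± 0.52 is uncertain. Apcdd1, a membrane inhibitor of Wnt signalling, had 6.15, 6.63, 6.02 and 5.92 with TPhP, against 8.00, 8.16, 8.12 and 8.53 with Rosi and 6.12, 6.73, 5.83 and 6.02 with vehicle. TPhP and vehicle covered nearly the same range, and Apcdd1 differed by -2.02 ± 0.28 (adjusted p = 5.8e-06). Adh1, an alcohol dehydrogenase, fell by 2.13 ± 0.56 (adjusted p = 0.026, with 0.0789 to 0.209 without any one pool and 0.156 without the TPhP array of pool 12).

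Several metabolic lists gave no call. These were fatty acid synthesis (18 genes, median -0.06), sterol synthesis (17, 0.10), the tricarboxylic acid cycle (22, -0.21), the respiratory chain (29, -0.09) and LXR targets (15, -0.06). Abca1 and Abcg1, cholesterol exporters and LXR targets, differed by -0.11 ± 0.16 and -0.73 ± 0.24 (adjusted p = 0.9 and 0.098). With the pool as a block there was 1 fall in fatty acid synthesis, 2 in the tricarboxylic acid cycle, 1 in the respiratory chain and 1 among LXR targets, Abcg1 (adjusted p = 0.0171). By limma at an unadjusted p under 0.05, 1775 of the 14911 genes tested passed between TPhP and Rosi. Genes with no difference pass that threshold at a rate of 0.05, so this count is not one of calls. Glucocorticoid targets, which read the dexamethasone of the medium, gave 1 fall and 0 rises among 14 genes (median -0.04). There was 0 without pool 12, 19 or 20, without the TPhP array of pool 12 or with the mean of probe sets. Cell cycle genes gave 0 calls among 25 (median 0.02).

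**Figure D3:**
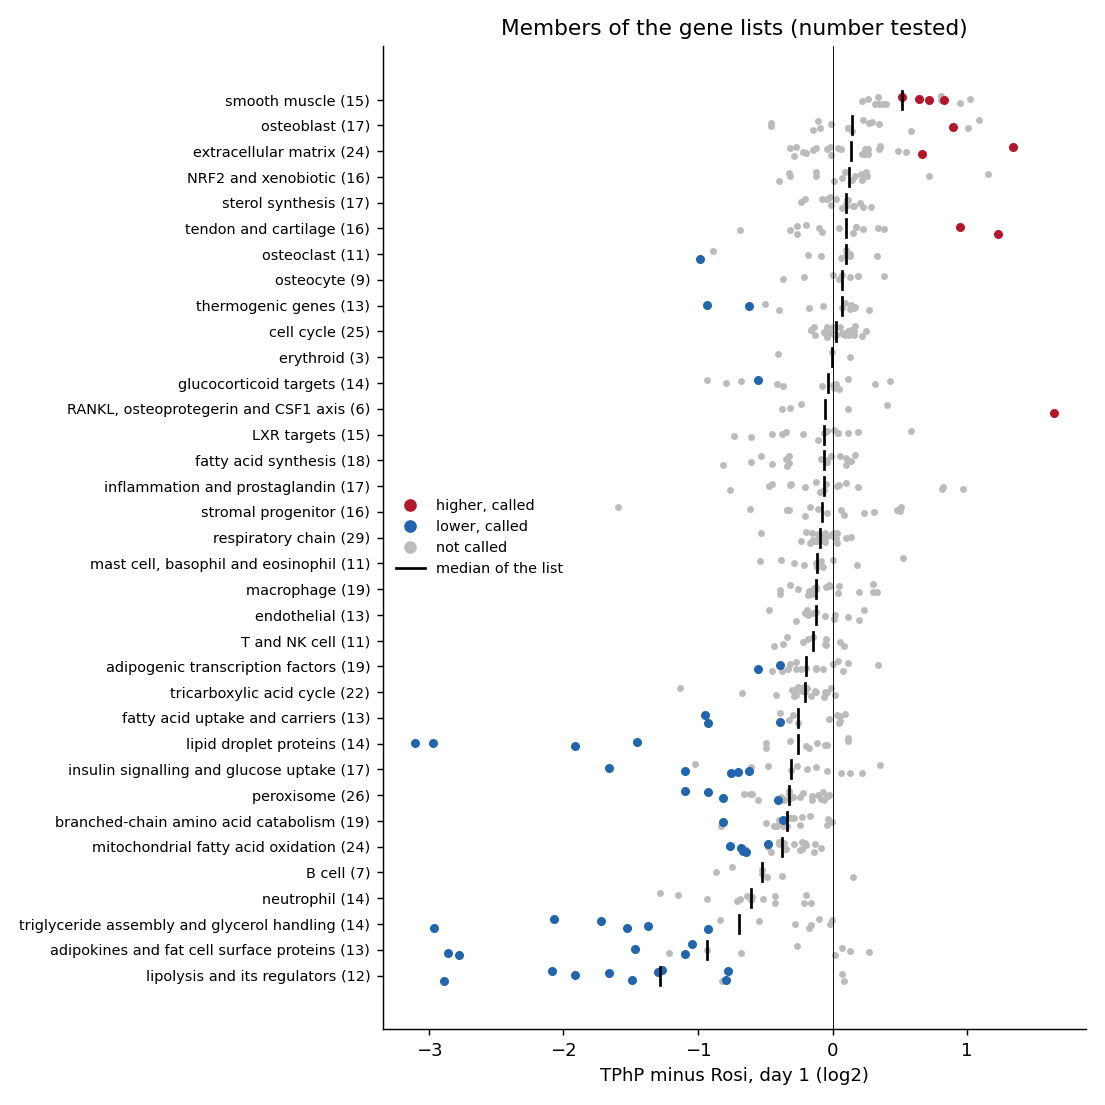
Difference between TPhP and Rosi at day 1 (log2, x axis) for the tested members of 35 gene lists, 1 row a list with the number tested, sorted by median (black bar). Lipolysis genes sit lowest, with a median of -1.28, and smooth muscle genes highest, at 0.52, and coloured points are calls.

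The largest rise was Tnfrsf11b, the gene of osteoprotegerin, a decoy receptor that blocks RANKL and so restrains bone-resorbing osteoclasts. It had 8.36, 7.51, 8.41 and 8.26 in TPhP cultures, against 5.80, 6.82, 6.92 and 6.42 in Rosi cultures and 8.10, 8.18, 9.05 and 9.003 in vehicle cultures. Rosi arrays were below all others, and TPhP overlapped vehicle. The difference of 1.64 ± 0.32 (adjusted p = 0.0012) is 3.12-fold higher with TPhP, and was not called without pool 12 (0.0585) or pool 20 (0.0583). It was the only call among 6 tested genes of the RANKL, osteoprotegerin and CSF1 axis. Car2, a carbonic anhydrase that osteoclasts use to acidify bone, fell by 0.98 ± 0.25, the only call among 11 osteoclast genes (adjusted p = 0.019, with 0.0914 to 0.141 without pool 12, 19 or 20 and 0.0736 without the TPhP array of pool 12).

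Of 24 extracellular matrix genes 2 rose and 0 fell (median 0.14), Ccn2 and Ccn1. There was 1 rise without pool 12, pool 19 or the TPhP array of pool 12, and 0 without pool 20. Ccn2, connective tissue growth factor, had 10.57, 9.73, 9.98 and 9.85 in TPhP cultures, against 8.21, 9.19, 8.99 and 8.38 in Rosi cultures and 10.34, 10.51, 10.69 and 10.88 in vehicle cultures. The TPhP array of pool 12 was the highest of its group and the Rosi array of pool 12 the lowest of its own. Ccn2 differed by 1.34 ± 0.27 (adjusted p = 0.0019, and 0.0687 without pool 20), or 2.53-fold. Its relatives Ccn4 (1.20 ± 0.34, adjusted p = 0.045) and Ccn1 (0.66 ± 0.18, adjusted p = 0.038) rose as well, but neither was called without pool 12 (0.266 and 0.219), pool 19 (0.145 and 0.174) or pool 20 (0.258 and 0.233), nor Ccn4 without pool 15 (0.0683). Without the TPhP array of pool 12 their adjusted p was 0.295 and 0.189. Map3k7cl had 7.77, 7.18, 7.68 and 7.53 with TPhP, against 5.74, 6.26, 6.63 and 6.04 with Rosi and 8.16, 7.76, 8.52 and 8.79 with vehicle, and rose by 1.37 ± 0.20 (adjusted p = 1.7e-05). Sox9, the master regulator of cartilage, had 6.58, 7.18, 7.88 and 7.80 with TPhP, against 5.68, 6.21, 6.32 and 6.33 with Rosi and 6.66, 6.95, 7.70 and 7.77 with vehicle. TPhP and vehicle moved together from pool to pool, and Sox9 rose by 1.23 ± 0.24 (adjusted p = 0.0016, and 0.0583 without pool 20). Col2a1, the cartilage collagen, rose by 0.94 ± 0.24, and it and Sox9 were the calls among 16 tendon and cartilage genes. That count of 2 was 1 without pool 12, its TPhP array or pool 19, 0 without pool 20, and 0 when only the arrays compared were fitted. Zfp469 (1.11 ± 0.21), Adamts1 (1.08 ± 0.22), a metalloprotease, Slc1a6 (1.07 ± 0.23), a glutamate transporter, Gpr176 (1.05 ± 0.19), an orphan receptor, Ptx3 (1.02 ± 0.27), a pentraxin, Fgf7 (0.95 ± 0.21), a growth factor for epithelium, and Unc5b (0.94 ± 0.27), a netrin receptor, complete the secreted, surface and other genes among the 15 largest rises. Of these 7, only Zfp469 was called with any one pool left out. Adamts1 was not called without pool 20 (adjusted p = 0.0565), Slc1a6 (0.154) and Gpr176 (0.0571) without pool 12, Fgf7 without pool 19 (0.0528) or pool 20 (0.154), Ptx3 without pool 15, 19 or 20 (0.105 to 0.239), and Unc5b without any one pool (0.112 to 0.222). Without the TPhP array of pool 12, Slc1a6 (0.0519), Ptx3 (0.067) and Unc5b (0.274) were not called either. Against vehicle, Ptx3, Slc1a6, Unc5b and Col2a1 were called lower with Rosi. None of these calls held without pool 20 (adjusted p = 0.0568 to 0.196), nor that of Ptx3 without pool 15 (0.125) or pool 19 (0.0973).

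Contractile genes were the group with the most rises. All 15 smooth muscle genes had a positive difference, with a median of 0.52, and 4 rose (6 with the pool as a block). Myocd, the coactivator that drives the smooth muscle program with serum response factor, had 5.50, 5.59, 5.73 and 5.81 in TPhP cultures, against 4.33, 5.47, 4.94 and 5.01 in Rosi cultures and 5.84, 6.02, 6.84 and 6.82 in vehicle cultures. TPhP arrays lay between the other groups. Myl9, the regulatory myosin light chain, had 11.38, 10.93, 11.16 and 11.02 with TPhP, against 10.34, 10.53, 10.56 and 10.48 with Rosi and 11.30, 11.28, 11.49 and 11.45 with vehicle. The groups TPhP and Rosi did not overlap in either gene. Myocd rose by 0.72 ± 0.19 (adjusted p = 0.027), Lmod1, leiomodin, by 0.83 ± 0.22 (adjusted p = 0.028), Smtn, smoothelin, by 0.52 ± 0.14 (adjusted p = 0.03) and Myl9 by 0.65 ± 0.17 (adjusted p = 0.032). Tagln (0.81 ± 0.24) and Actg2 (0.95 ± 0.29) did not pass (adjusted p = 0.069 and 0.078) but did with the pool as a block (0.028 and 0.0315), as did Tagln with the stricter filter (0.048) and Actg2 with only the arrays compared (0.0379). Outside the list, Myom1, a sarcomere protein (1.21 ± 0.31), and Ppp1r14a, an inhibitor of myosin phosphatase (0.95 ± 0.19), were among the 15 largest rises. Myom1 was not called without pool 15, 19 or 20 (adjusted p = 0.0841 to 0.181) or without the TPhP array of pool 12 (0.159), the highest of its group (7.57, against 6.82 to 6.90 in the others), nor Ppp1r14a without pool 12 (0.0775). In place of 4 calls there were 1 without pool 12 or its TPhP array, 2 without pool 15 and 0 without either pool 19 or pool 20. With the mean of probe sets there were 3, and Smtn was not called (0.31, adjusted p = 0.25). With only the arrays compared there were 5, and Myocd was not called (adjusted p = 0.12). Summed smooth muscle markers ran from 13.48 to 13.99 with TPhP, 12.97 to 13.33 with Rosi and 13.80 to 14.05 with vehicle.

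Promoters of some of these genes are shown because serum response factor binds a motif called the CArG box, which was looked for after the contractile genes had been seen to differ. The 250 bases before the start were read from RefSeq's promoter table (GRCm38.p6) on both strands for 72 of the 89 genes that rose, 188 of the 257 that fell and 11614 of the 14911 tested. A CArG box stood in 6 of the 72 (8.33%), in 2 of the 188 (1.06%) and in 165 of the 11614 (1.42%). The 6 genes were Myl9, Myom1, Srf, Lmcd1, Ldb3 and 4833412C05Rik, and 4 of their promoters follow 5′ to 3′ on the gene's strand, with the boxes in capitals. Srf, the gene of serum response factor, and Lmcd1, a muscle LIM protein, were picked after their values were seen.
Myl9 (chr2:156775214-156775463, plus strand): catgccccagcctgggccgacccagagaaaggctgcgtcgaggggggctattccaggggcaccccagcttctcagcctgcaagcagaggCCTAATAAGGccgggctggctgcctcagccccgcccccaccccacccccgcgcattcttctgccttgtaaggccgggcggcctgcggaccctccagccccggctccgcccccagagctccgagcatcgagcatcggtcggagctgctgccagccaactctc
Srf (chr17:46556163-46556412, minus strand): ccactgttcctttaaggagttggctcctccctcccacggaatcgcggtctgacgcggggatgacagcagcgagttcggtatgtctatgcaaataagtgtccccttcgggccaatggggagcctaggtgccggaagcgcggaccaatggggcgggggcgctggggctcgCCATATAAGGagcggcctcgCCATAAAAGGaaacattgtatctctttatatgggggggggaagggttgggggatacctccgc
Myom1 (chr17:71019307-71019556, plus strand): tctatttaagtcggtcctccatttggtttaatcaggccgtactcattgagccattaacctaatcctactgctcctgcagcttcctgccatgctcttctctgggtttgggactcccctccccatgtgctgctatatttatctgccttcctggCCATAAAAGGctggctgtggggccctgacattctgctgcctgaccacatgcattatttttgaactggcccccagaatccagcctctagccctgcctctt
Lmcd1 (chr6:112273508-112273757, plus strand): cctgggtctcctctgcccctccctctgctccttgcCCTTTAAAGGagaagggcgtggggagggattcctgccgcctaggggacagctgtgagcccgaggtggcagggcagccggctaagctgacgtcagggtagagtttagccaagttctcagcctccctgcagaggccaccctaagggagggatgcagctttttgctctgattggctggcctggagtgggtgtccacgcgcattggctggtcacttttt
Srf holds 2 boxes, which begin 82 and 62 bases before the start, and the boxes of Myl9, Myom1 and Lmcd1 begin 161, 99 and 215 bases before it. Srf rose by 0.43 ± 0.10 (adjusted p = 0.009, and 0.0935 to 0.267 without pool 12, 19 or 20 or the TPhP array of pool 12) and Lmcd1 by 0.59 ± 0.16 (adjusted p = 0.034, and 0.0803 to 0.312 without pool 12, 15 or 20 or that array). These rises are relative to Rosi, and Lmcd1 was called lower with TPhP than with vehicle. The other motifs searched were GGAATG, a core bound by TEAD factors, in 25.0% of the 72, 11.2% of the 188 and 12.7% of all, the C/EBP site, in 2.78%, 8.51% and 6.52%, and the exact DR1 repeat, which PPAR binds with RXR, in 0 of the 72, 0 of the 188 and 5 of all. These are shares of letters found, no test was made of them, and other windows were not searched.

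Bone-forming genes gave 1 call at this time. Of 17 osteoblast genes 1 rose and 0 fell (median 0.15). The call was Bmp4, a bone morphogenetic protein, which had 9.60, 9.60, 9.44 and 9.35 in TPhP cultures, against 8.71, 8.999, 8.33 and 8.37 in Rosi cultures and 9.91, 9.90, 9.66 and 10.01 in vehicle cultures. It rose by 0.90 ± 0.25 (adjusted p = 0.044), but not without pool 15 (0.102), pool 19 (0.263), pool 20 (0.3) or the TPhP array of pool 12 (0.153). Sp7, osterix, the transcription factor of committed osteoblasts, had 8.59, 8.04, 7.49 and 7.77 with TPhP, against 6.73, 7.48, 6.85 and 6.47 with Rosi and 8.51, 8.61, 8.13 and 8.60 with vehicle. The TPhP arrays lay above the Rosi arrays by a small margin, and the difference of 1.09 ± 0.44 did not pass (adjusted p = 0.25). Alpl, alkaline phosphatase, differed by 0.27 ± 0.27 (adjusted p = 0.81) and Ibsp, bone sialoprotein, by 0.15 ± 0.62 (adjusted p = 0.97).

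Both chemicals were also set against the day 1 vehicle arrays, which the comparisons share, so their values are given side by side only. TPhP changed 32 genes against vehicle, 27 higher and 5 lower (0.215% of those tested, 0.181% and 0.0335% by direction), and 71 with the pool as a block. Leaving out a pool gave 63 calls (pool 12), 12 (pool 15), 13 (pool 19) or 8 (pool 20). Rosi changed 1081 genes (7.25%), 621 higher and 460 lower (4.16% and 3.08%), with 585 called without pool 19 and 430 without pool 20. The 3 genes with the smallest adjusted p for TPhP were Angptl4 (2.03 ± 0.18 with TPhP, 2.98 ± 0.18 with Rosi), Aqp7 (1.97 ± 0.24 with TPhP, 3.49 ± 0.24 with Rosi) and Fabp4 (1.69 ± 0.20 with TPhP, 2.62 ± 0.20 with Rosi). Itih5, an inter-alpha-trypsin inhibitor chain, rose by 1.23 ± 0.17 with TPhP and 2.57 ± 0.17 with Rosi, and Rnf125, a ubiquitin ligase, by 0.83 ± 0.12 with TPhP (adjusted p = 6.1e-05, and 0.0519 without pool 20) and 2.17 ± 0.12 with Rosi. Epb41l4b rose by 1.01 ± 0.14 with TPhP and 1.29 ± 0.14 with Rosi, and TPhP and Rosi did not pass against each other (-0.28 ± 0.14, adjusted p = 0.45). Plin1 differed from vehicle by 1.76 ± 0.42 with TPhP and did not pass (adjusted p = 0.056, and 0.0011 with the pool as a block), against 4.73 ± 0.42 with Rosi. Adcy5, Lipe and Pde3b differed from vehicle by 0.32 ± 0.24, 0.20 ± 0.26 and 0.30 ± 0.31 with TPhP, none of which passed, and rose by 3.21 ± 0.24, 1.69 ± 0.26 and 1.95 ± 0.31 with Rosi. Tnfrsf11b differed from vehicle by -0.45 ± 0.32 with TPhP (adjusted p = 0.96) and fell by 2.09 ± 0.32 with Rosi. Among the 5 genes lower with TPhP than with vehicle were Scx, a tendon transcription factor (-1.08 ± 0.24 with TPhP, adjusted p = 0.03, and -1.47 ± 0.24 with Rosi), and Aspn, asporin (-1.53 ± 0.35 with TPhP, adjusted p = 0.04, or 0.0898 to 0.422 without any one pool and 0.366 without the TPhP array of pool 12, and -0.85 ± 0.35 with Rosi, adjusted p = 0.16). Scx was not called for TPhP without pool 19 (0.272), pool 20 (0.932) or the TPhP array of pool 12 (0.124). Lmcd1 was another gene called lower with TPhP than with vehicle. It was not called without pool 15 (-0.76, adjusted p = 0.22), pool 19 (-0.72, 0.0819) or pool 20 (-0.69, 0.831). Ptgs2, the inducible cyclooxygenase, differed by -1.32 ± 0.44 with TPhP (adjusted p = 0.41, and 0.0087 with the block) and fell by 2.14 ± 0.44 with Rosi.

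**Figure D4:**
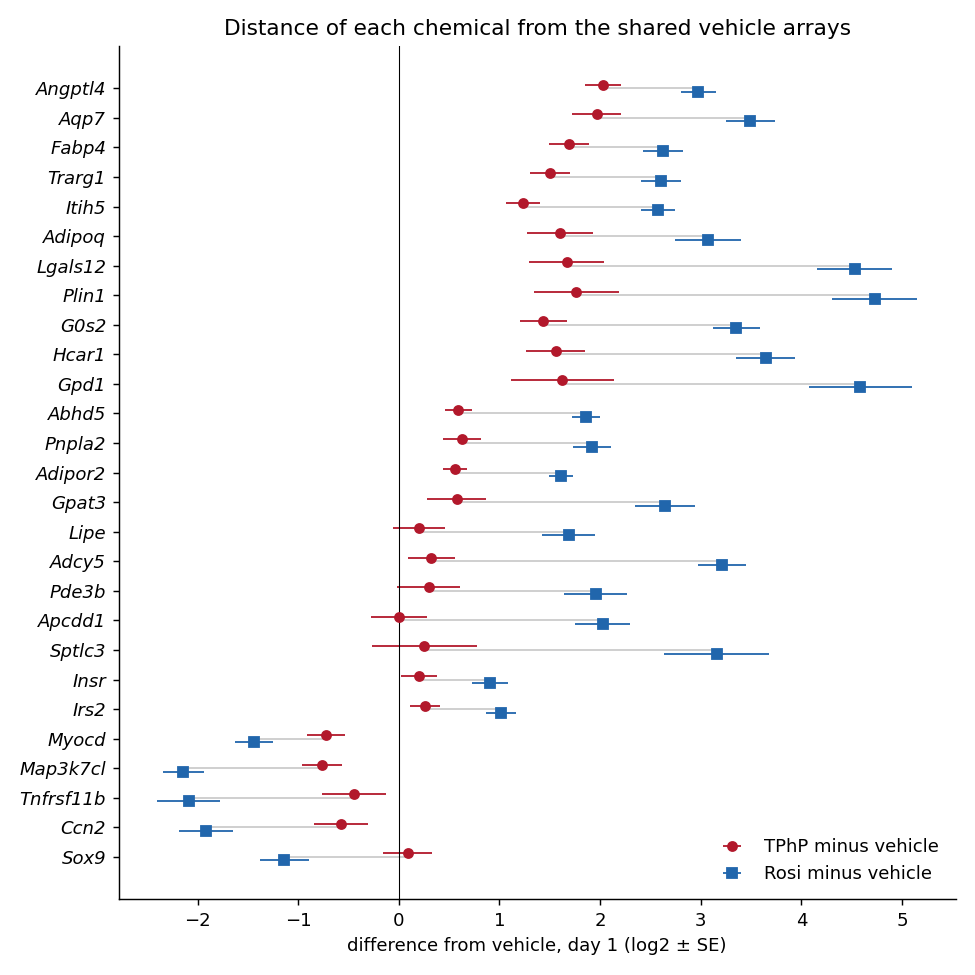
Difference from the shared day 1 vehicle arrays (log2 ± SE, x axis, n = 4 arrays a group) for 27 genes, with TPhP in red circles and Rosi in blue squares. TPhP reaches 2.03 for Angptl4 and stays near 0 for Adcy5, Lipe, Pde3b and Apcdd1, all of which rose with Rosi.

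The difference between TPhP and Rosi was not the same at day 4 as at day 1. The test of the change (day 4 difference minus day 1 difference) called 1647 genes (11%), 938 higher and 709 lower (6.29% and 4.75%), with 593 called without pool 19, 241 without pool 20 and 446 when only the arrays compared were fitted. The test uses the day 1 arrays that ranked the genes named here, so large day 1 differences are favoured to shrink. At day 4 itself 4207 genes differed between TPhP and Rosi (28.2%), 2251 higher and 1956 lower with TPhP (15.1% and 13.1%). Many fat cell genes stood closer together then. Plin1 averaged 10.52 ± 0.47 in TPhP cultures and 11.09 ± 0.14 in Rosi cultures at day 4 (SD, n = 4 each), a difference of -0.57 ± 0.42, and the change of 2.39 ± 0.60 had an adjusted p of 0.0071 (0.0627 without pool 19, 0.0574 without pool 20). Mc5r averaged 10.32 ± 0.48 with TPhP and 10.21 ± 0.15 with Rosi, a change of 2.42 ± 0.46 (adjusted p = 0.00057). Adcy5 changed by 1.55 ± 0.33 (adjusted p = 0.0019, and 0.0657 without pool 20) and was still lower with TPhP at day 4, by -1.34 ± 0.24. Ccn2 averaged 8.12 ± 0.76 with TPhP and 8.15 ± 0.14 with Rosi at day 4, a change of -1.37 ± 0.38 (adjusted p = 0.014, and 0.0738 without pool 19 or 0.242 without pool 20). A further set showed no day 1 difference and a large one at day 4. Elovl3, a fatty acid elongase of brown fat, averaged 4.73 ± 0.98 with TPhP and 10.09 ± 1.31 with Rosi at day 4, and the difference changed by -5.52 ± 0.75 (adjusted p = 7.7e-06). Cyp2e1, a cytochrome P450, averaged 5.02 ± 0.73 with TPhP and 9.37 ± 0.58 with Rosi, a change of -4.60 ± 0.45 (adjusted p = 9.4e-09). Cidea, a droplet protein of brown fat, averaged 5.41 ± 1.02 with TPhP and 8.65 ± 1.48 with Rosi, a change of -3.06 ± 0.68 (adjusted p = 0.0026, and 0.0674 without pool 12 or 0.0518 without pool 20). At day 1 these 3 genes lay under the median of the table in all 8 arrays. Sptlc3 (-2.91 ± 0.52 at day 1, -3.23 ± 0.52 at day 4) and Itih5 (-1.34 ± 0.17 at day 1, -1.71 ± 0.17 at day 4) were lower with TPhP at both days, and for neither did the change pass (adjusted p = 0.85 and 0.36).

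**Figure D5:**
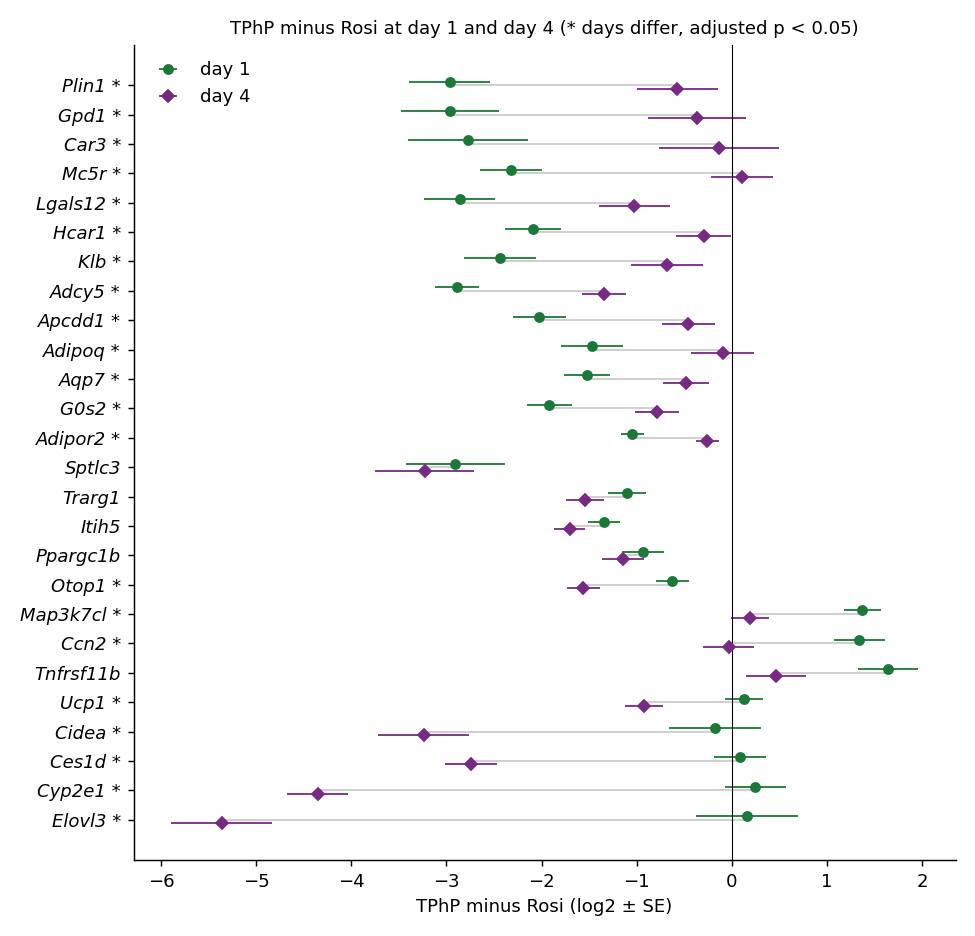
Difference between TPhP and Rosi (log2 ± SE, x axis, n = 4 arrays a group) at day 1 (green circles) and day 4 (purple diamonds) for 26 genes, with an asterisk where the change between days passed. Plin1 moves to -0.57 at day 4 from its day 1 difference of -2.97, while Elovl3 moves the other way, to -5.36.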

How the data were processed

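Each of 52 cultures has an Affymetrix Mouse Gene 2.0 ST array. The values, as deposited, are log2 intensities of 41345 probe sets. The submitters' processing notes name R 3.3.1 and oligo, while how background was corrected and arrays were normalized is not given in the sources used here. Probe sets with 1 gene (23521, of which 23328 matched RefSeq by gene ID) were used, and those with several (1814) or none (16010) were not. For 1082 genes with several probe sets, the one with the highest mean stood for the gene. A gene was tested if at least 4 arrays exceeded 4.05, the median of all values, which left 14911 of 22180 genes.

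Groups were compared with limma 3.58.1 (R 4.3.3, data.table, version 1.17.8) as group means over all 52 arrays (13 groups, two-sided, 39 residual degrees of freedom), and p-values were adjusted by Benjamini-Hochberg over all genes tested. SEs are limma's. The labels make each pool of animals 1 experiment, so a group holds 4 pools, and arrays of a number share animals. The p-values rest on the spread within groups, estimated over all 13 groups, and this fit treats arrays of a number as independent. With group means removed, the TPhP and Rosi arrays of pools 12, 15, 19 and 20 correlated at -0.0098, 0.425, 0.242 and 0.0814, and 43 of the 52 arrays had their highest correlation with their own pool; the pool is therefore also fitted as a replicate block (36 residual degrees of freedom).

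The comparison and the 35 gene lists were chosen with earlier results of these data known. Named were, by rule, the 15 largest rises and 15 largest falls called and equal in sign in 4 of 4 pools, the up to 6 list members lowest in adjusted p, key genes, and for TPhP against vehicle and the change between days the 10 with the smallest adjusted p; the choice among these, and Hcar2, Prkar2b, Srf, Lmcd1, Ldb3, 4833412C05Rik and list members named as not passing, was made after values were seen. On simulated data of the TPhP and Rosi comparison, limma recovered 52% of genes changed by 0.5, 90% by 1, 96% by 1.5 and 100% by 2, and 8.15% of 184 calls were unchanged genes. The simulated noise was independent between arrays and of the same spread in every array for a gene. It held no pool effect and no outlying array, unlike the real data, so these shares may not carry over. Alternatives were the block, only the arrays compared, cyclic loess, no filter, a filter at the 75th percentile, the mean of probe sets, eBayes with trend and robust settings and each pool left out; leaving out the TPhP array of pool 12 was chosen after seeing the data. Promoters and figures used Python 3.11.15, pandas 2.3.3 and matplotlib 3.10.9. Genes whose symbol no probe set used carried, such as Acsl1 and Runx2, were not analysed here.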

Additional observations from a re-analysis of the deposited data

Results flagged for a closer look

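Of 198 groups of 4 arrays examined (99 named genes in TPhP and Rosi cultures at day 1), 10 held an array whose gap to its group exceeded Dixon's critical value for 4 samples; chance gives about 1 in 20. Of the 10, 6 were in the TPhP array of pool 12. It was low for Plin1 (5.41 in this array, 6.51 to 6.72 in the other TPhP arrays), Car3 (7.42, others 9.60 to 9.92), Hcar1 (6.35, others 6.94 to 6.95) and Acadm (9.50, others 10.04 to 10.11), and high for Ccn4 (8.86, others 7.83 to 7.92) and Myom1 (7.57, others 6.82 to 6.90). The TPhP array of pool 15 was low for Tnfrsf11b (7.51, others 8.26 to 8.41). Among Rosi arrays, pool 15 was low for Angptl4 (10.64, others 10.90 to 10.94) and high for Ibsp (11.49, others 10.22 to 10.25), and pool 19 was low for Pik3r1 (10.37, others 10.49 to 10.50).

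In 33 of the named genes the difference between TPhP and Rosi changed between days by limma's test of day 4 minus day 1, which shares its day 1 arrays with the comparison that ranked most of these genes. A positive change was found in 19 genes, Adcy5 (1.55), Abhd5 (0.77), G0s2 (1.13), Hcar1 (1.79), Pnpla2 (0.79), Plin1 (2.39), Aqp7 (1.05), Gpd1 (2.59), Adipor2 (0.79), Lgals12 (1.84), Adipoq (1.37), Car3 (2.64), Pik3r1 (0.61), Klb (1.76), Mc5r (2.42), Apcdd1 (1.56), Abcg1 (1.06), Rnf125 (0.63) and Lmo4 (0.54) (log2). All of them but Abcg1 had fallen in TPhP relative to Rosi at day 1. A negative change was found in 14 genes, Otop1 (-0.94), Ucp1 (-1.05), Cidea (-3.06), Ppargc1a (-1.31), Map3k7cl (-1.19), Ccn2 (-1.37), Ppp1r14a (-0.96), Slc1a6 (-1.01), Unc5b (-1.27), Zfp469 (-0.99), Cyp2e1 (-4.60), Elovl3 (-5.52), Ces1d (-2.83) and Dusp8 (-1.99). Of these, Map3k7cl, Ccn2, Ppp1r14a, Slc1a6, Unc5b and Zfp469 had risen in TPhP relative to Rosi at day 1 and Otop1 had fallen, and the others had not passed. Of the 33, Pnpla2, Aqp7, Gpd1, Lgals12, Adipoq, Car3, Ppargc1a, Pik3r1, Klb, Ppp1r14a, Slc1a6, Unc5b, Zfp469 and Rnf125 did not pass without the TPhP array of pool 12 (adjusted p = 0.0532 to 0.15). Leaving out a whole pool ended the call for 22 of the 33 (pool 19) or 27 (pool 20). Without pool 12 it ended for 13, without pool 15 for 9, and with only the arrays compared for 15. With the mean of probe sets it ended for 1, G0s2 (0.63, adjusted p = 0.122).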

How the results depend on the processing

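The calls between TPhP and Rosi changed most in number when a pool, or the TPhP array of pool 12, was left out. Their count of 346 ran from 97 to 251 with a pool left out and was 166 without the TPhP array of pool 12; rises ran from 13 to 62 and were 22 without that array, against 89 (168 with the replicate block); falls ran from 84 to 189 and were 144 without that array, against 257. For TPhP against vehicle the count of 32 was 71 with the replicate block and ran from 8 to 63 with a pool left out. For Rosi against vehicle the count of 1081 ran from 430 to 1013 (1097 without the TPhP array of pool 12), and for the change between days the count of 1647 ran from 241 to 1600 and was 446 with only the arrays compared. Cyclic loess, the mean of probe sets, no filter, the stricter filter and the eBayes settings kept each of these counts within 1.5 times. The share of rises among the calls was 25.7%, against 32.7% with the replicate block, 14.8%, 17.2% and 13.4% without pool 12, 19 or 20, and 13.3% without the TPhP array of pool 12. For single named genes between TPhP and Rosi, 973 values kept direction and side of the threshold, 197 lost the call, 8 gained it and 3 changed sign while not called. Among the genes the text names, the replicate block changed the call between TPhP and Rosi at day 1 for Tagln, Actg2 and Abcg1 only. With fewer arrays the fit has less power, and counts also differed with which pool was left out. The part of each in the lower counts was not tested. Values under the median of the table, 4.05, are near background and their differences are uncertain in size.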
